A study of Mus musculus with 13 samples.

Results

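Ribosome biogenesis is the making of ribosomes in the nucleolus, and its genes were followed here in mouse intestinal organoids and sorted intestinal stem cells with and without Apc loss. The set was a list of 42 genes, taken by symbol, and all 42 were found among the 24054 genes of the count tables. RNA polymerase I copies ribosomal RNA as a long precursor, box C/D and box H/ACA small nucleolar ribonucleoproteins (snoRNPs) modify it, and large sets of assembly factors cut and fold it into the small and the large subunit. In the intestine, rapidly dividing crypt cells need many ribosomes, and loss of Apc switches on Wnt signalling, one known target of which is Myc, a transcription factor that acts on many ribosome biogenesis genes through the E-box CACGTG. The list held 3 RNA polymerase I subunits, 3 box C/D proteins, 4 box H/ACA proteins counting the chaperone Nolc1, 14 small subunit factors, 13 large subunit factors, 4 nucleolar regulators and Odc1, the first enzyme of polyamine synthesis and a known Myc target.

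The 13 libraries of polyA RNA fell into 6 groups of 2, apart from 1 group of 3, all from adult mice given 2 doses of 1 mg tamoxifen. Whole organoids, from crypts labelled ileal and plated 10 days after induction, came from Atoh1CreERT2;Apcfl/fl;Rosa26tdTomato mice (Sec-Cre, Cre in the secretory lineage), from Lgr5eGFP-CreERT2;Apcfl/fl;Rosa26tdTomato mice (ISC-Cre, Cre in stem cells) and from wild-type (WT) mice. Flow-sorted intestinal stem cells (ISCs) came from the ileum of Sec-Cre mice (Atoh1CreERT2;Apcfl/fl;Lgr5DTR-GFP;Rosa26tdTomato) at 21 days, from the ileum of WT mice at 21 days, which carried Apcfl/fl;Lgr5DTR-GFP;Rosa26tdTomato without Cre, and, with 3 libraries, from the duodenum of ISC-Cre mice (Lgr5eGFP-CreERT2;Apcfl/fl;Rosa26tdTomato) at 14 days. Ileum and duodenum follow the cell type labels, whereas the extraction protocol names the duodenum for every sample, so the region is uncertain. The labels do not name the marker used for the sort. The labels do not state that replicates were separate animals, so the p-values measure the spread between these libraries, which may be technical. In the duodenal group, region, Cre driver, time, dissociation method and strandedness (98.5% to 98.85% of stranded counts on the second strand, against 48.4% to 51.1% elsewhere) all differed from the ileal groups and cannot be told apart.

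Levels below are CPM, the counts of a gene divided by the library total and multiplied by 1e+06, with the total scaled by TMM. Library totals ran from 11524335 to 45516228 gene counts, and every member had counts in every library. The TMM factor that multiplies these totals was 0.352 and 0.875 in replicates 1 and 2 labelled ileal Sec-Cre ISCs, and 0.98 to 1.25 elsewhere. The scaled CPM of that replicate 1 thus lie far above its unscaled CPM. The 2 libraries labelled ileal Sec-Cre ISCs stood apart. In them 57.0% and 35.8% of reads were unmapped, against 2.58% to 13.9% elsewhere, and the replicates differed from each other more than those of any other group. The Wnt target Axin2 was at 79.1 and 37.9 CPM in them, below the WT ileal ISCs at 329.9 and 284.8 (log2 fold change -2.40 ± 0.41 SE, edgeR adjusted p = 0.00785), which goes against the label of Apc loss. In the duodenal ISC-Cre ISCs Axin2 was at 679.2 to 770.6 CPM, and in the Apc-null organoids at 782.3 to 821.9 against 221.7 and 393.2 in WT organoids. Summed over 12 enterocyte markers the same 2 ileal libraries held 53120 and 28360 CPM, against 1820 and 1863 in WT ileal ISCs. The 13 Paneth markers summed to 722300 and 10970 CPM there, against 20680 and 19900. Unscaled, they took 25.45% and 0.96% of counts, against 2.14% and 2.11%, so only replicate 1 was above WT. The 8 crypt-base stem cell markers summed to 1290 and 2175 CPM, against 5318 and 5566 (2 of 8 called lower, none higher). Lgr5, one of the 8, was at 69.4 and 51.9 CPM against 97.8 and 61.4. The stem cell marker sum was also low in the other Apc-null groups, with 2601 to 2861 CPM in the duodenal ISCs. It was 2373 to 3143 CPM in the Apc-null organoids, against 4174 and 7729 in WT organoids. These sums lean on Olfm4, at 3005 and 3608 CPM in WT ileal ISCs and 1604 and 4642 in WT organoids. Olfm4 was at 70.0 to 101.5 CPM in the duodenal ISCs and 44.1 to 129.1 in the Apc-null organoids. Single markers went either way. Lgr5 was called higher in duodenal than WT ileal ISCs (log2 fold change 1.55). Mex3a was called higher in both Apc-null organoid groups (2.25 and 2.50), and Slc12a2 lower in ISC-Cre organoids (-1.43). Because of the unmapped reads, Axin2 and enterocyte markers, the same 2 ileal libraries are called the libraries labelled ileal Sec-Cre ISCs throughout. Apc itself had counts in every library at gene level, which does not check the deletion of part of the gene.

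The E-box was searched on both strands in RefSeq promoter windows of 300 bases (250 before and 50 after the start, GRCm38.p6), which were given for 37 of the 42 members. It was found for 7 of the 37 (18.9%), against 11.2% of 11239 genes tested in the fit of all libraries and 7.15% of all 32851 windows. The 7 sites are shown because 6 of them belong to genes that were higher in the duodenal ISC-Cre ISCs than in the libraries labelled ileal Sec-Cre ISCs, described further on. Each is 30 bases, 5′ to 3′ on the gene's strand, with the E-box in capitals.

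Utp20, chr10:88826765-88826794, minus strand: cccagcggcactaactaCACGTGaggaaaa
Mybbp1a, chr11:72441347-72441376, plus strand: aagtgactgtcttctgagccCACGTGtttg
Wdr43, chr17:71616220-71616249, plus strand: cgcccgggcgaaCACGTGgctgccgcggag
Utp18, chr11:93885769-93885798, minus strand: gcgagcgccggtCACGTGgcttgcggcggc
Tsr1, chr11:74898092-74898121, plus strand: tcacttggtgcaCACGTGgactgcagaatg
Pes1, chr11:3963965-3963994, plus strand: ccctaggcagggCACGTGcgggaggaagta
Nop2, chr6:125131811-125131840, plus strand: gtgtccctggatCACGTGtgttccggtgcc

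The first base of the E-box lay within 60 bases of the RefSeq start in all 7, before it in Nop2 (-60) and Utp18 (-20) and after it in the other 5. Utp20, Wdr43 and Utp18 are proteins of the small subunit processome, Tsr1 acts later in small subunit maturation, Mybbp1a is a nucleolar regulator, and Pes1 and Nop2 act in large subunit maturation. A match is a run of letters and was not tested for binding.

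Summed over the 42 genes, the level was lowest in the libraries labelled ileal Sec-Cre ISCs. With TMM scaling the sums of Apc-null organoids lay within the range of the 2 WT organoid libraries. The sums were 6574.5 and 6560 CPM in Sec-Cre organoids, 5391.4 and 5827.7 in ISC-Cre organoids, and 5373 and 6604.7 in WT organoids. With this scaling both Apc-null organoid groups lay inside the range of the 2 WT libraries. The difference between the WT libraries (mean 5989 ± 871 SD, n = 2) was the widest of the organoid groups. Without TMM the Sec-Cre sums were 7437.1 and 7495.9 CPM, above both WT sums of 5604.7 and 6976.1. Both Sec-Cre sums lay above both ISC-Cre sums with and without TMM. The order of ISC-Cre and WT means flips with the scaling, 5610 against 5989 CPM with TMM and 6649 against 6290 without it. In ISCs the sums were 5075.9 and 4877.8 CPM for WT ileum, 4959.3, 5959.7 and 6253.1 for ISC-Cre duodenum, and 2533.4 and 3169.2 for the libraries labelled ileal Sec-Cre. The last 2 lay below all 11 others, at a group mean of 2851 ± 449.6 CPM (SD, n = 2). Without TMM scaling these 2 sums were 892.72 and 2774 CPM, still below all 11 others but far apart from each other. How close the 2 libraries lie thus depends on the scaling. The sum leans on 2 genes, since Ncl and Npm1 had the highest CPM of the 42. The summed level of 30 proliferation genes was also low there (1220 and 2198 CPM against 4612 and 4399 in WT ileal ISCs and 2382 to 2707 in the duodenal libraries), and its part in the members' sum was not tested. In bulk RNA, fewer cells of a type and less RNA per cell cannot be told apart.

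**Figure D1:**
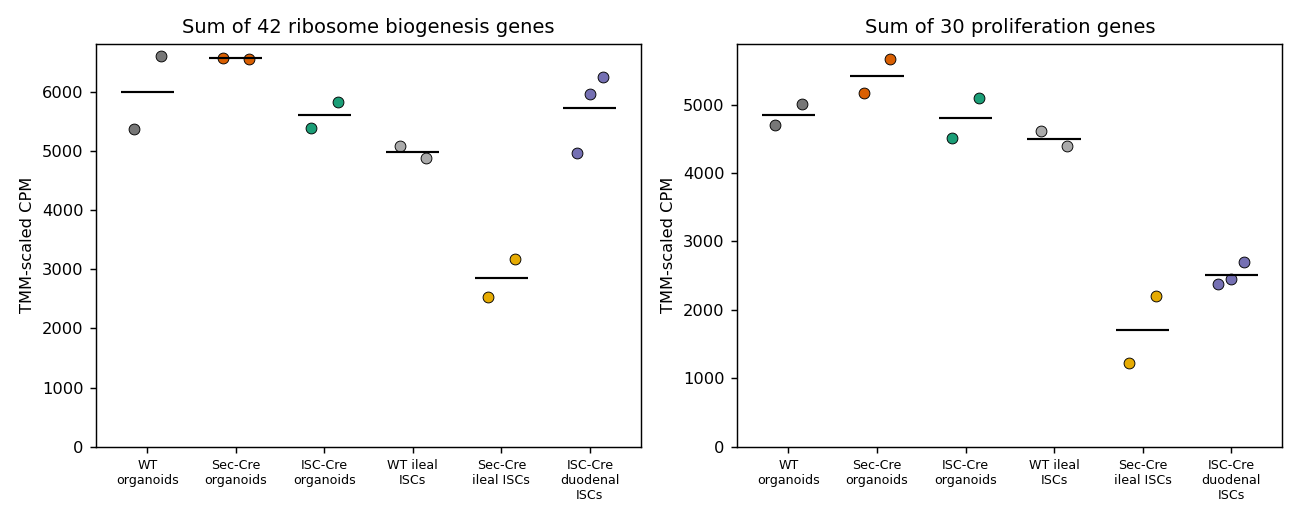
Summed TMM-scaled CPM of the 42 ribosome biogenesis genes (left) and of 30 proliferation genes (right) in each of the 13 libraries; each point is 1 library, bars are group means. The libraries labelled ileal Sec-Cre ISCs have the lowest values on the left (2533.4 and 3169.2 CPM); the duodenal ISCs are near WT on the left and below it on the right.

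Levels between genes were compared per kilobase of the principal GENCODE vM21 transcript. Npm1, the nucleolar chaperone nucleophosmin, had the highest mean over the 6 groups at 447 CPM per kb, followed by Ncl, nucleolin, at 120 CPM per kb. The snoRNP proteins Fbl (101), Nhp2 (98.5), Nop58 (97.4) and Nop56 (96.3 CPM per kb) came next, then Odc1 (88.3 CPM per kb). The lowest were Bysl (8.35) and Rrp12 (8.39 CPM per kb), both small subunit factors. The annotated Ncl transcript has 8202 bases but only 2121 coding bases, so its value per kb is low for a gene at this CPM. That of Bysl has 3854 bases with 1308 coding bases, so its last place depends on the length used. More than 20% of the 31-base words of Ddx18 (65.5%), Pes1 (32.4%), Odc1 (31.3%), Npm1 (29.2%), Nop56 (22.4%) and Fbl (20.7%) also occur in other genes, so their counts are uncertain.

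**Figure D2:**
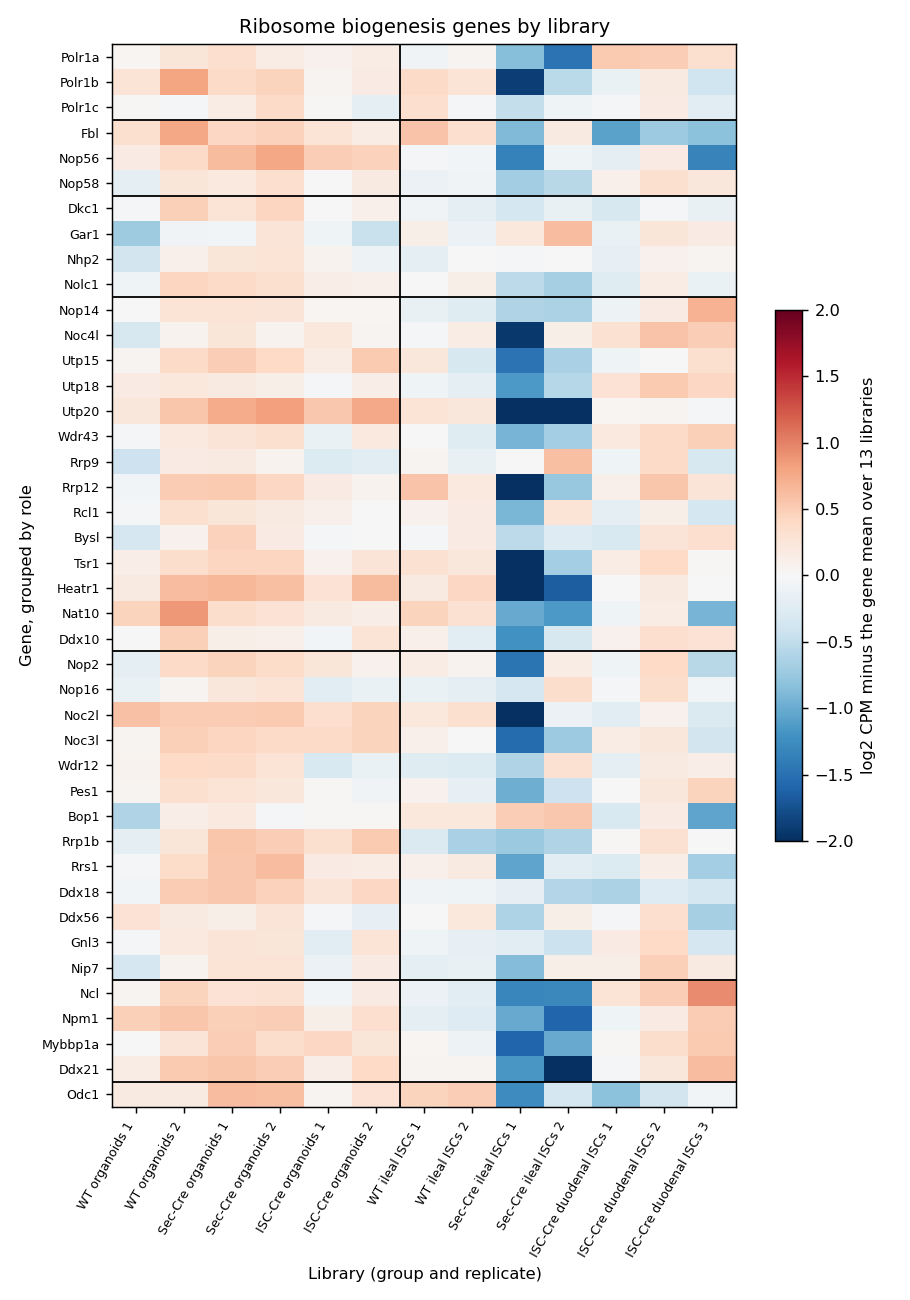
Each cell is a gene's log2 CPM in 1 library minus its mean over the 13 libraries, from -2 (blue) to 2 (red), for the 42 genes by role (rows) and the libraries by group (columns). The 2 columns labelled Sec-Cre ileal ISCs are mostly blue, with Utp20 past -2 in both; the organoid columns are pale to red.

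Apc-null organoids were compared with WT organoids to see whether the list moves with Apc loss in culture. In Sec-Cre organoids 1 of the 42 members was called higher and none lower at an edgeR adjusted p under 0.05, while 33% of 14208 genes were called in that comparison (16.7% higher and 16.3% lower). The called member was Odc1, at 273.2 and 272.3 CPM in Sec-Cre and 202.3 and 203.5 CPM in WT organoids. Both Sec-Cre libraries lay above both WT libraries (log2 fold change 0.38 ± 0.12 SE, edgeR adjusted p = 0.0469). The call sat near the threshold: it was kept in 6 of 14 alternative analyses, with adjusted p from 0.0126 to 0.411. The median log2 fold change of the members was 0.16, with 33 of 42 above 0, beside 0.05 over all genes. Members whose libraries did not overlap between the groups numbered 17 higher and 1 lower, or 40.5% and 2.38% of the list, where 41.1% and 30.3% of all genes did so.

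In ISC-Cre organoids 1 of the 42 was called lower and none higher, where 37.8% of all genes were called (19.3% higher and 18.5% lower). It was Nat10, the acetyltransferase that acts on 18S ribosomal RNA, at 62.4 and 60.7 CPM against 75.1 and 100.1 CPM in WT organoids. The groups did not overlap, but the WT libraries were far apart (log2 fold change -0.54 ± 0.16 SE, edgeR adjusted p = 0.0323, and 0.00752 to 0.289 over the 14 alternatives). The members' median was -0.10, with 16 of 42 above 0, beside 0.03 over all genes. The libraries did not overlap for 2 higher and 9 lower members, or 4.76% and 21.4% of the list, where 37.2% and 31.3% of all genes did so. WT replicate 1 was lower than WT replicate 2 for 39 of the 42 members, and the counts turn on it: without replicate 2, 9 members were called higher in Sec-Cre and 2 higher in ISC-Cre organoids, where 18.1% and 19.4% of all genes were. Without replicate 1, 1 was called lower in Sec-Cre and 5 lower in ISC-Cre, where 12.8% and 15.6% of all genes were.

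Other cell types moved between these groups. All 12 enterocyte markers were called lower in both Apc-null organoid groups, with sums of 431.4 to 602.6 CPM against 4540 and 3469 in WT organoids, and 7 of 8 goblet markers were lower in each. Of 30 proliferation genes 2 were higher and none lower in Sec-Cre, and 1 was higher and 1 lower in ISC-Cre organoids. Their part in the members' values was not tested.

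The organoid intervals describe the spread between these libraries, gene by gene and without adjustment for the number of genes. All 42 members had 95% intervals within a fold change of 2 in either direction, with bounds from -0.78 to 0.98 on the log2 scale in Sec-Cre against WT, and from -0.92 to 0.74 in ISC-Cre against WT. The 3 RNA polymerase I subunits had log2 fold changes of -0.19 to 0.23 in Sec-Cre and -0.48 to -0.06 in ISC-Cre organoids. Polr1a, the catalytic subunit, was at 115.7 and 102.1 CPM in Sec-Cre, 97.7 and 102.2 in ISC-Cre and 94.5 and 109.1 in WT organoids, so the groups overlapped. The 14 small subunit factors ranged from -0.41 (Nat10) to 0.38 (Bysl) in Sec-Cre, and the 13 large subunit factors from -0.11 (Ddx56) to 0.43 (Rrp1b). Ncl was at 1153 and 1167 CPM in Sec-Cre, 907.9 and 1056 in ISC-Cre, and 978.3 and 1288 in WT organoids. The Sec-Cre values of Ncl fell between the 2 WT values.

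Sec-Cre and ISC-Cre organoids, the same Apc loss started in different cells, were compared directly. No member passed the edgeR test (0 of 42; 4 had an unadjusted p under 0.05, and DESeq2 gave 0), where 0.0422% of all genes were called, all of them lower (0% higher). Yet 40 of 42 had a log2 fold change above 0 (median 0.22, against 0.00 over all genes), and the libraries did not overlap for 30, all higher in Sec-Cre, or 71.4% of the list against 22.9% of all genes. The intervals reached from -0.47 to 0.93 on the log2 scale. Odc1 was the member with the smallest unadjusted p, at 273.2 and 272.3 CPM in Sec-Cre against 185.5 and 217.6 in ISC-Cre organoids (log2 fold change 0.42, edgeR adjusted p = 0.984). All 30 proliferation genes also had values above 0 in this comparison, median 0.16, with none called, and the part of that in the members' shift was not tested. All 11 Paneth markers tested had values below 0 (median -1.06, 1 called lower), with sums of 2274 and 2336 CPM in Sec-Cre against 6597 and 4628 in ISC-Cre organoids, and their part was not tested either.

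**Figure D3:**
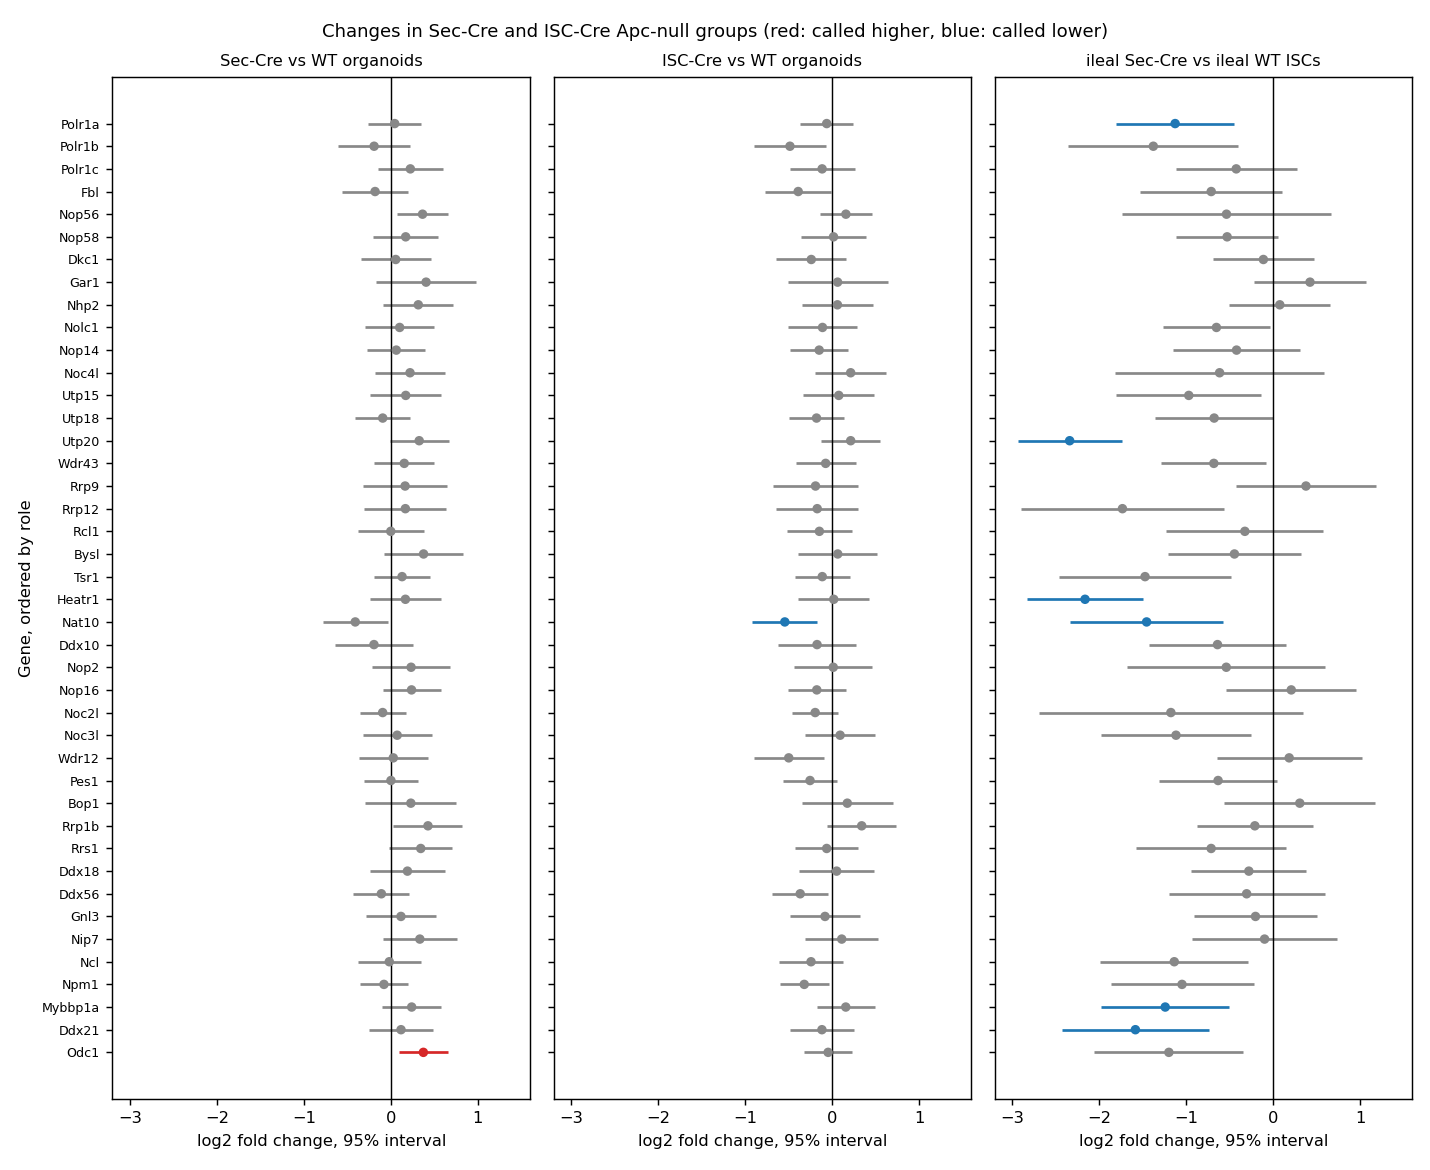
Log2 fold changes with 95% intervals of the 42 genes (rows, by role) for Sec-Cre against WT organoids, ISC-Cre against WT organoids, and the libraries labelled ileal Sec-Cre against WT ileal ISCs. Points in the first 2 panels stay near 0 with 1 call each (Odc1 red, Nat10 blue); the third shows 6 genes called lower, with Utp20 and Heatr1 farthest from 0.

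The libraries labelled ileal Sec-Cre ISCs had lower levels than WT ileal ISCs for 6 of the 42 members and higher levels for none, where 6.96% of 14577 genes were called lower and 9.62% higher (16.6% in all). The 6 were Utp20, Heatr1 and Nat10 of the small subunit, Ddx21 and Mybbp1a of the nucleolar regulators, and Polr1a. No box C/D, box H/ACA or large subunit member was called. The members' median log2 fold change was -0.64, with 36 of 42 below 0, beside 0.00 over all genes. The libraries did not overlap for 29 lower and 2 higher members, or 69.0% and 4.76% of the list, where 31.1% and 29.1% of all genes did so.

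Utp20, a large scaffold protein of the small subunit processome, was at 18.2 and 20.6 CPM in the libraries labelled ileal Sec-Cre and at 100 and 97.4 in WT ileal ISCs. Every other library of the study held 80.9 to 146.7 CPM. The log2 fold change was -2.34 ± 0.26 SE (edgeR adjusted p = 0.00287), and the call was kept in all 15 alternatives. Heatr1, another scaffold of the processome that is needed for precursor transcription, was at 16.7 and 23.2 CPM against 82.9 and 97.5 (log2 fold change -2.16 ± 0.29 SE, edgeR adjusted p = 0.00416). Its groups were also far apart, and 14 of 15 alternatives kept the call; without WT ileal replicate 2 the adjusted p was 0.0532. Nat10 was at 27.3 and 24.9 CPM against 74.8 and 68.3 (log2 fold change -1.46 ± 0.39 SE, edgeR adjusted p = 0.0359).

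Ddx21, an RNA helicase of the nucleolus, was at 93.8 and 51.3 CPM in the libraries labelled ileal Sec-Cre against 216.7 and 217.7 in WT ileal ISCs (log2 fold change -1.59 ± 0.37 SE, edgeR adjusted p = 0.0247). Mybbp1a, a nucleolar regulator that binds Myb proteins, was at 103.2 and 152.8 CPM against 318.0 and 288.1 (log2 fold change -1.24 ± 0.32 SE, edgeR adjusted p = 0.0340). Polr1a was at 51.0 and 33.1 CPM against 87.3 and 95.5 (log2 fold change -1.13 ± 0.30 SE, edgeR adjusted p = 0.0358). In all 3 genes both labelled Sec-Cre libraries lay below both WT libraries. The calls of Polr1a, Nat10 and Mybbp1a were each kept in 8 of 15 alternatives and that of Ddx21 in 12.

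Members with no call had wide intervals, and 7 of 42 had a 95% interval within a fold change of 2. Ncl was at 379.7 and 383.8 CPM against 868.5 and 812.3, and Npm1 at 337.4 and 225.8 against 597.7 and 568.3, with no overlap but no call. The box H/ACA proteins differed least: Gar1, at 63.5 and 84.1 CPM against 59.4 and 50.9, and Nhp2, at 99.5 and 102.9 against 90.4 and 101.5, had values above 0, and Nolc1 was at 106.6 and 97.0 against 153.6 and 166.4. The transcripts of Gar1 and Nhp2 are under 2 kb, a class whose median log2 fold change over all genes was 0.66. Bop1, which with Pes1 and Wdr12 forms a large subunit complex, was at 119.7 and 124.4 CPM against 98.6 and 99.0, while Pes1 was at 56.9 and 84.3 against 119.2 and 100.6. Noc2l, the large subunit factor with the highest mean CPM, was at 14.8 and 101.5 CPM against 127.1 and 138.4, so the 2 labelled Sec-Cre libraries were themselves far apart. Nop56, of the box C/D core, was at 63.8 and 152.7 CPM against 158.1 and 156.7, with the same spread.

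**Figure D4:**
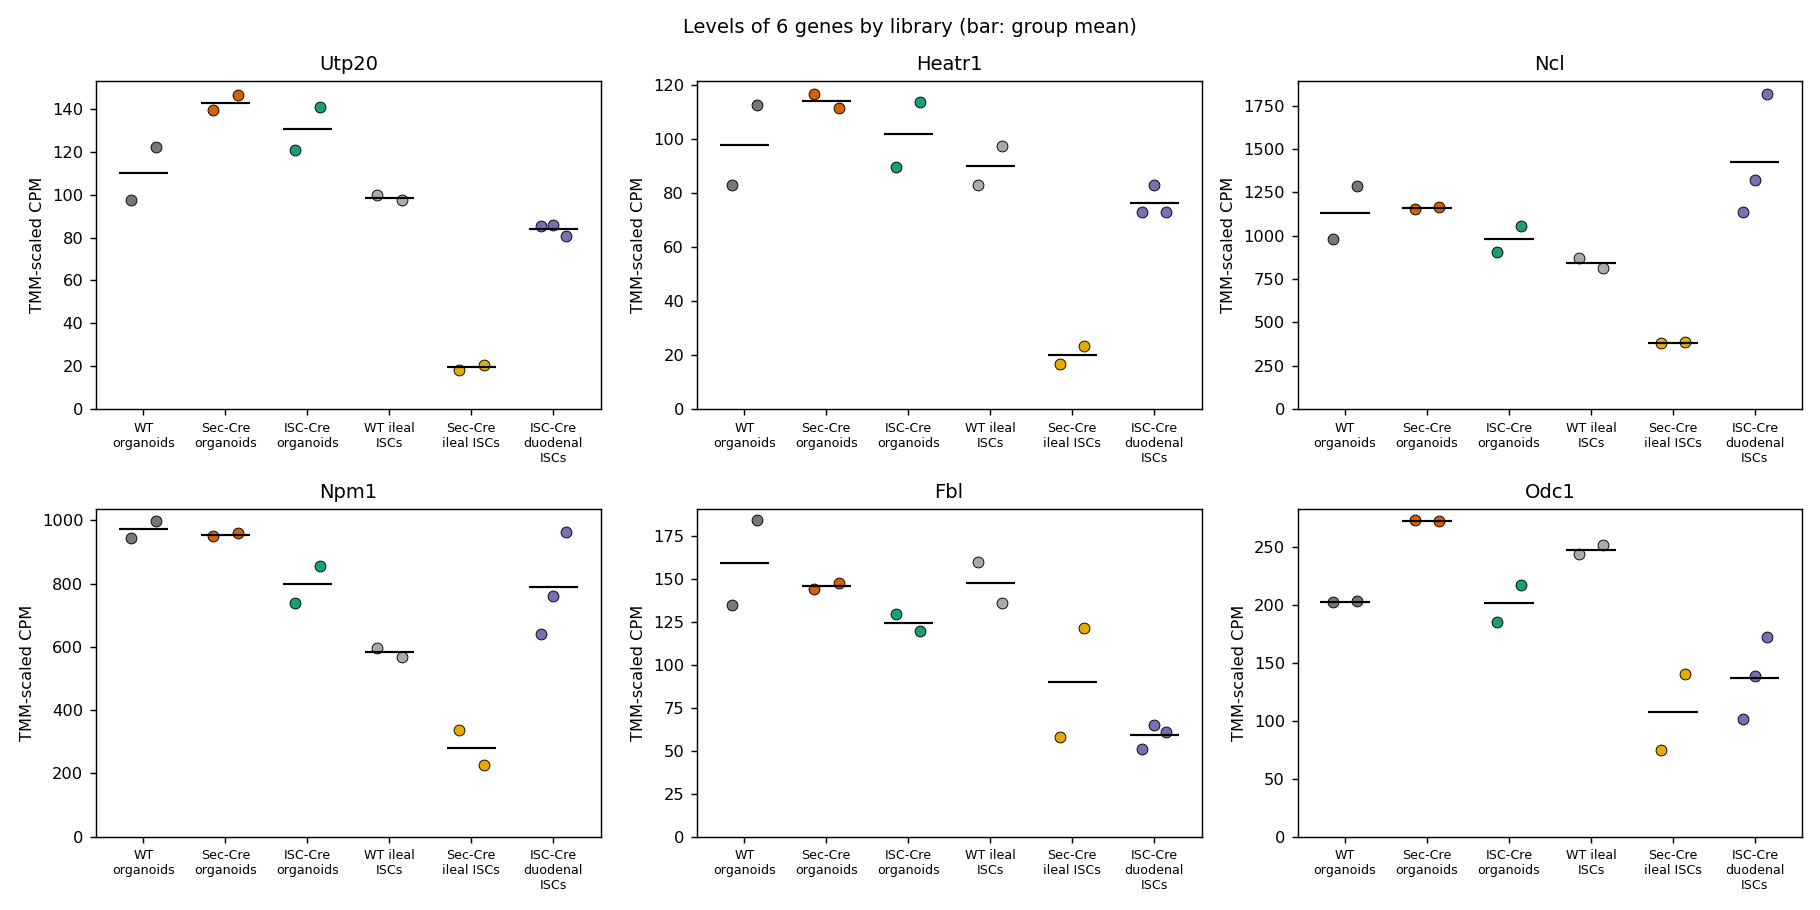
TMM-scaled CPM of Utp20, Heatr1, Ncl, Npm1, Fbl and Odc1 in the 13 libraries (points) with group means (bars). Utp20 and Heatr1 are near 20 CPM only in the libraries labelled Sec-Cre ileal ISCs (16.7 to 23.2); Fbl is lowest in the duodenal ISCs and in replicate 1 of that ileal group.

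The size of the change followed transcript length in this comparison. Over all genes the median log2 fold change was 0.66 for 4500 genes with transcripts under 2 kb and -0.62 for 2259 genes of 5 kb or more. The members' medians were -0.32 (12 genes under 2 kb), -0.58 (12 of 2 to 3 kb), -1.05 (14 of 3 to 5 kb) and -1.65 (4 of 5 kb or more), below all genes in each class. All 6 called members had transcripts of 3 kb or more, Utp20 8821 bases and Heatr1 6780. Spearman's rho of log2 fold change with length was -0.61 over the 42 members and -0.40 over all genes, as a description across genes that share libraries, and -0.64 over the members with coding length. The organoid value for Sec-Cre against WT was -0.09 over the members. With the trend over all genes fitted and taken out, an analysis chosen after seeing the data, 5 members were called lower (Utp20, Heatr1, Ddx21, Nop58 and Npm1), where 4.47% of all genes were, and the members' median was -0.69. Polr1a, Nat10 and Mybbp1a were no longer called, with log2 fold changes of -0.63, -1.14 and -0.82 (edgeR adjusted p = 0.247, 0.120 and 0.170). Without replicate 1 of the labelled Sec-Cre libraries 5 members were called lower (8.34% of all genes), namely Utp20, Heatr1, Ddx21, Polr1a and Npm1, so Nat10 and Mybbp1a were not among them. Without replicate 2 the count was 15 (9.99%), of which 4 were among the 6. Without WT ileal replicate 1 it was 2 (0.531%) and without WT ileal replicate 2 it was 1 (0.352%). The part of transcript length, unmapped reads, enterocyte RNA or proliferation in these differences was not tested beyond these values.

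**Figure D5:**
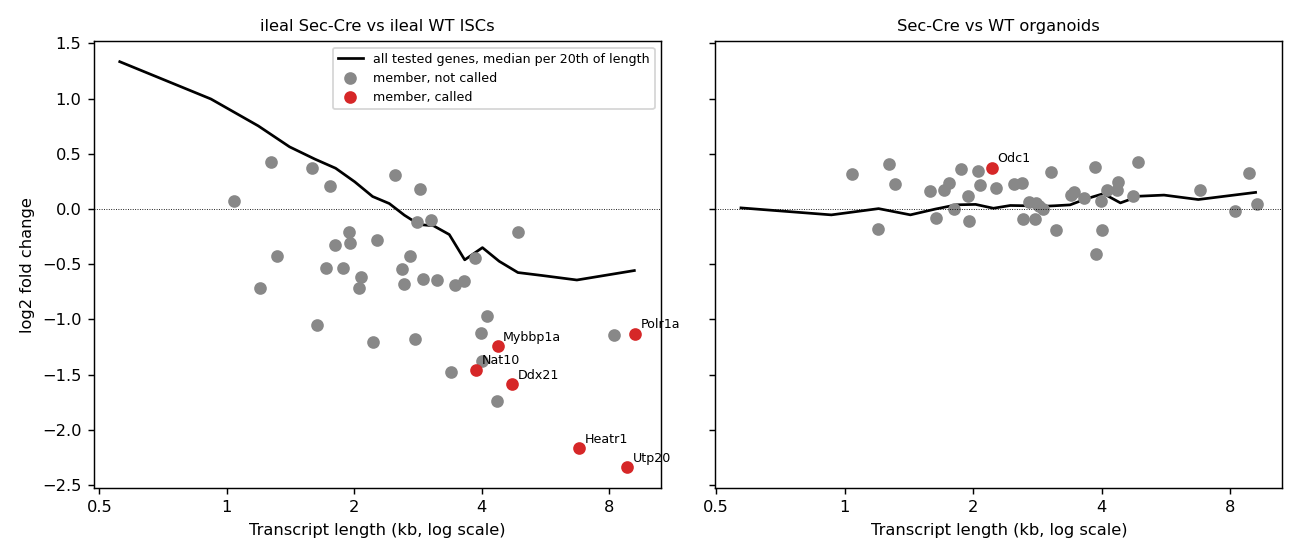
Log2 fold change (vertical) against transcript length in kb (horizontal, log scale) for the libraries labelled ileal Sec-Cre against WT ileal ISCs (left) and Sec-Cre against WT organoids (right); dots are the 42 genes, red where called, and the line joins medians of all tested genes in 20 equal classes of length. On the left the line falls with length and most dots lie below it; on the right both stay near 0.

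Duodenal ISC-Cre ISCs, whose Axin2 level was high, were set beside WT ileal ISCs. Of the 42 members 1 was called lower and none higher, where 19.1% of all genes were called (10.2% higher and 8.84% lower), and the median log2 fold change was 0.06 beside 0.07 over all genes. The call was Fbl, the methyltransferase of box C/D snoRNPs, at 51.2, 65.1 and 61.3 CPM against 160.0 and 136.3. All 3 duodenal libraries were below both WT libraries (log2 fold change -1.32 ± 0.32 SE, edgeR adjusted p = 0.0241), but the call was kept in 9 of 16 alternatives, and Fbl shares sequence with other genes. The libraries did not overlap for 12 higher and 8 lower members, or 28.6% and 19.0% of the list, where 32.2% and 29.1% of all genes did so. Ncl, at 1135, 1321 and 1820 CPM against 868.5 and 812.3, was higher in all 3 libraries without passing the test, and the other box C/D proteins went either way, Nop58 at 177.2, 206.2 and 193.0 against 152.8 and 157.8 and Nop56 at 143.2, 183.4 and 64.3 against 158.1 and 156.7. Odc1 was at 101.2, 138.8 and 172.2 CPM against 243.9 and 251.7, lower in each library but not called. In the same comparison 11 of 30 proliferation genes were lower and none higher.

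Set against the libraries labelled ileal Sec-Cre, the duodenal ISCs had 18 of 42 members higher and none lower, where 21% of 14577 genes were called higher and 19.8% lower (40.8% in all). The median of the members was 0.79, beside 0.12 over all genes, and 37 of 42 were above 0. The libraries did not overlap for 22 higher members and 1 lower, or 52.4% and 2.38% of the list, where 34.2% and 28.3% of all genes did so. All 4 nucleolar regulators were called, 9 of 14 small subunit factors, 3 of 13 large subunit factors, 1 of 3 RNA polymerase I subunits, 1 of 3 box C/D proteins and none of 4 box H/ACA proteins. This comparison shares the labelled Sec-Cre libraries with the comparison against WT ileal ISCs, so it is not independent of it: 5 of the 6 members lower there were among the 18 here. All 12 enterocyte markers and 7 of 12 Paneth markers tested were lower in the duodenal libraries, and of 30 proliferation genes 8 were higher and 3 lower, and their part in the result was not tested.

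Ncl was at 1135, 1321 and 1820 CPM in the duodenal libraries against 379.7 and 383.8 in the labelled Sec-Cre libraries (log2 fold change 1.90 ± 0.36 SE, edgeR adjusted p = 0.00435). Npm1 was at 642.3, 761.6 and 963.4 CPM against 337.4 and 225.8 (log2 fold change 1.49 ± 0.34 SE, edgeR adjusted p = 0.00990). Both groups were apart in both genes. Of the processome members, Utp20 was at 85.5, 85.9 and 80.9 CPM against 18.2 and 20.6 (log2 fold change 2.11 ± 0.25 SE, edgeR adjusted p = 0.000514), and Heatr1 at 73.1, 83.2 and 73.1 against 16.7 and 23.2 (log2 fold change 1.93 ± 0.28 SE, edgeR adjusted p = 0.00123). Wdr43, the small subunit factor with the highest mean CPM, was at 136.3, 154.6 and 165.3 CPM against 62.1 and 74.0 (log2 fold change 1.16 ± 0.25 SE, edgeR adjusted p = 0.00732). Again no library of one group reached the other. Polr1a was at 132.3, 129.1 and 115.0 CPM against 51.0 and 33.1 (log2 fold change 1.59 ± 0.29 SE, edgeR adjusted p = 0.00336). Ddx21 (log2 fold change 1.83), Mybbp1a (1.58), Rrp12 (1.66), Tsr1 (1.41) and Utp18 (1.24) were further called members above a log2 fold change of 1.2. The remaining calls, Nop58, Nop14, Utp15, Ddx10, Noc3l, Pes1 and Rrp1b, had log2 fold changes of 0.79 to 1.09. They were less stable: of 16 alternatives the call was kept in 5 for Ddx10 and Rrp1b, 6 for Utp15, 7 for Nop14 and Pes1, 8 for Noc3l and 11 for Nop58, and in 13 or more for each of the other 11 called members.

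The calls again lay with the longer transcripts, with 13 of the 18 at 3 kb or more. Ncl is among these long transcripts, with 8202 bases but only 2121 coding bases. Over the 42 members Spearman's rho of log2 fold change was 0.75 with transcript length and 0.65 with coding length. After the length trend was removed 13 members were called higher, where 17.8% of all genes were. Of the 16 called members with a RefSeq promoter window 6 held the E-box shown above (37.5%), and of the 21 members not called 1 did (4.76%). The matching shares over all genes called and not called were not computed. A link between the E-box and the calls was therefore not tested. With single libraries left out, 9 to 21 members were called higher. The lowest count was without duodenal replicate 2, with 9 higher and 1 (Bop1) lower, where 16.3% and 15.7% of all genes were.

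WT organoids and WT ileal ISCs did not differ detectably for the list. None of the 42 members was called by edgeR (1 at an unadjusted p under 0.05, and 0 by DESeq2), where 3.87% of 15208 genes were called (1.98% higher and 1.89% lower). The libraries did not overlap for 13 higher and 2 lower members, or 31% and 4.76% of the list, beside 27.2% and 26.1% of all genes, and 33 of 42 had a 95% interval within a fold change of 2. The Sec-Cre effect was then compared between organoids and ISCs by the difference of the 2 contrasts. For 9 members the difference was positive at an edgeR adjusted p under 0.05, and for none negative, where 13.4% and 13% of all genes were called (26.4% in all). The 9 were Utp20, Heatr1, Rrp12, Tsr1, Wdr43, Ddx21, Mybbp1a, Odc1 and Polr1a, and the labelled Sec-Cre ISC libraries enter each.

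Other genes of the pathway, taken from 4 further lists, were placed beside the members. In Sec-Cre against WT organoids 1 of 40 other small subunit factors was higher, and 1 of 46 other large subunit factors was higher and 2 lower. Of 17 other RNA polymerase I genes 3 were higher, and none of 25 other snoRNP and exosome genes was called. Over all genes 16.7% were higher and 16.3% lower in that comparison. Rrn3, the factor that brings RNA polymerase I to its promoter, was at a mean of 93.6 CPM in Sec-Cre against 59.9 in WT organoids (log2 fold change 0.59 ± 0.14 SE, edgeR adjusted p = 0.0171). In the libraries labelled ileal Sec-Cre against WT ileal ISCs the counts were 2 higher and 6 lower of 40, 1 higher and 8 lower of 46, 2 higher and 1 lower of 17, and 3 higher and 3 lower of 25. There Pelp1 (log2 fold change -2.21), Naf1 (-2.01), Wdr36 (-1.39) and Rrn3 (-1.22) were lower, and Polr2k (2.17), Nop10 (1.96), Fcf1 (1.68) and Eif6 (1.25) were higher, each the called gene with the smallest adjusted p of its list and direction. These lists held calls in both directions in that comparison, where all 6 members called were lower. Over all genes 9.62% were called higher and 6.96% lower there. Calls followed transcript length, with 18.3% higher and 1.51% lower under 2 kb, and 3.01% and 18.1% at 5 kb or more. The part of transcript length in the calls of these lists was not tested.

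Myc was at 181.1 and 187.0 CPM in Sec-Cre, 158.0 and 175.9 in ISC-Cre and 170.3 and 188.9 in WT organoids, so both Apc-null groups overlapped WT. In ISCs it was at 131.5 and 240.6 CPM in the libraries labelled ileal Sec-Cre, 141.2 and 106.7 in WT ileum, and 131.7, 141.5 and 94.6 in the duodenum. None of the comparisons called Myc. Mxd1, a partner of Max that opposes Myc, was at 318.4 and 449.4 CPM in the libraries labelled ileal Sec-Cre against 32.1 and 44.3 in WT ileal ISCs (log2 fold change 3.33 ± 0.37 SE, edgeR adjusted p = 0.00281). Mycl, a paralog of Myc, was higher in both Apc-null organoid groups, at a mean of 250.7 CPM in Sec-Cre and 208.3 in ISC-Cre against 79.7 in WT organoids (edgeR adjusted p = 0.000853 and 0.00142). Mycn, another paralog at low levels, was lower in both, at a mean of 1.53 and 2.42 CPM against 12.8 in WT organoids (log2 fold change -3.10 and -2.43, edgeR adjusted p = 0.0169 and 0.0329). Of 13 Myc network genes 1 was higher and 3 lower in Sec-Cre, and 2 were higher and 3 lower in ISC-Cre organoids. Of the 7 polyamine genes tested beside Odc1, Smox, which oxidises spermine, rose in both (log2 fold change 1.84 and 2.08), and 2 fell in each. Rn45s, the gene of the ribosomal RNA precursor, took 0.271% to 1.67% of counts in 10 libraries, 10.4% and 2.05% in those labelled ileal Sec-Cre and 5.26% in duodenal replicate 3. As the RNA was polyA-selected, these shares were not read as a level of RNA polymerase I transcription.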

How the data were processed

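Gene-level read counts for 13 libraries were used as deposited, 1 table per library with 24054 genes. The authors' aligner STAR, DESeq2 1.22.2 and the build mm10 are named per the submitters' processing notes, with no version for STAR, and the annotation behind the counts is not given in the sources used here. The column for both strands was used, and the 4 summary lines were left out of library sizes. The labels describe a non-directional kit, but the duodenal counts were strand-specific, so reads of overlapping antisense genes are included for all libraries.

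Counts were analysed with edgeR 4.0.16 in R 4.3.3 (filterByExpr, minimum count 10; TMM; quasi-likelihood test; Benjamini-Hochberg over all genes of a fit; threshold 0.05), in fits of 6 organoid libraries (14208 genes), 7 ISC libraries (14577) and all 13 (15208, used for WT organoids against WT ISCs and for the difference of effects). Scripts were tested on simulated data. All 42 members matched GENCODE vM21 (GRCm38), which gave transcript lengths (APPRIS principal, then best support, then shortest); promoters came from RefSeq. Alternatives used other size factors, DESeq2 1.42.0, voom weights (limma 3.58.1), no filter, other sample sets, a replicate block, the sense-strand column for duodenal libraries, each library left out, and a length correction. The members and lists were chosen with earlier results of these data known. Members named with values were the one of highest mean CPM in each role and the called members of smallest adjusted p; others named (Gar1, Nhp2, Bop1, Pes1, Nop58) were chosen after their values were seen.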

Additional observations from a re-analysis of the deposited data

Results flagged for a closer look

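The Sec-Cre minus WT effect differed between organoids and ileal ISCs for 9 members (edgeR adjusted p under 0.05 for the difference of the contrasts, all 13 libraries). On the log2 scale, organoids minus ISCs, the differences were 2.72 for Utp20, 2.38 for Heatr1, 1.93 for Rrp12, 1.76 for Ddx21, 1.64 for Tsr1, 1.62 for Odc1, 1.53 for Mybbp1a, 1.23 for Polr1a and 0.89 for Wdr43. Utp20 and Heatr1 passed the test in all 20 alternative analyses, and Wdr43 in 4 of 20. The differences also followed transcript length (Spearman's rho 0.63 over the members and 0.30 over all genes). With the length trend taken out 9 members were called (10.7% of all genes), but Polr1a, Wdr43, Rrp12, Tsr1 and Mybbp1a were not among them. The ISC side of each difference rests on the 2 libraries labelled ileal Sec-Cre ISCs, whose Axin2 level goes against their label. Without replicate 1 of that group 10 members differed, where 15.9% of all genes were called in that direction, and without replicate 2, 21, where 15.8% were.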

How the results depend on the processing

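The replicate numbers of the labels showed no sign of pairing the samples, with deviations of same-numbered libraries correlated at -0.12 to 0.07. With 2 or 3 libraries per group such correlations cannot exclude pairing, so a replicate block was among the alternatives. No named call changed sign under any alternative, while counts of called members moved in most comparisons. The cause was not tested. The shares of all genes called moved too. For the libraries labelled ileal Sec-Cre against WT ISCs, 6.96% called lower became 10.8% with DESeq2 and 13.5% with all 13 libraries. That share was 3.72% with the compared groups only. For duodenal against labelled ileal Sec-Cre ISCs, 21% called higher became 16.2% with voom weights and 18.7% with the compared groups only. For the difference of the Sec-Cre effects, 13.4% became 15.9% with the replicate block. For Sec-Cre against WT organoids the count of 1 became 2 with DESeq2 or length correction and 0 with no filter, the replicate block or all 13 libraries; leaving out single libraries gave 0 to 9, and 1 lower without WT replicate 1. For ISC-Cre against WT organoids the count of 1 became 3 with DESeq2 or length correction and 0 with the replicate block, all 13 libraries or the compared groups only; single omissions gave 0 to 5, and 2 higher without WT replicate 2. Over all genes, 16.7% called higher in Sec-Cre against WT organoids became 19.6% with DESeq2 and 8.78% with all 13 libraries. In ISC-Cre against WT organoids, 18.5% called lower became 20% with DESeq2 and 8.97% with all 13 libraries. With length correction these shares were 16.7% and 19%. Sec-Cre against ISC-Cre organoids stayed at 0 members in all that were run. For the libraries labelled ileal Sec-Cre against WT ISCs the count of 6 became 13 with DESeq2, 17 with all 13 libraries and 3 with the compared groups only; single omissions gave 1 to 15. For duodenal against WT ileal ISCs the count of 1 became 2 with DESeq2, all 13 libraries or the compared groups only, 0 with the replicate block or length correction, and 7 (5 higher, 2 lower) with voom weights; single omissions gave 0 to 2. For duodenal against labelled ileal Sec-Cre ISCs, 18 became 11 with voom weights or the compared groups only; single omissions gave 10 to 21. Of these calls 1 was lower with all 13 libraries (Bop1, beside 20 higher), without labelled Sec-Cre replicate 1 (Fbl, beside 12) and without duodenal replicate 2 (Bop1, beside 9). For WT organoids against WT ISCs, 0 became 1 with voom weights or the compared groups only; single omissions gave 0. The difference of the Sec-Cre effects, 9, became 15 with the replicate block; single omissions gave 3 to 21. Over all genes, duodenal against WT ileal ISCs gave 10.2% higher and 8.84% lower, and 27.4% and 23.2% with voom weights. For WT organoids against WT ISCs, 1.98% called higher became 4.73% with voom weights and 3.64% with the compared groups only. Without TMM scaling the member sum of the labelled Sec-Cre libraries was 1833 CPM, and it stayed the lowest group.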
